A study of Homo sapiens with 10 samples.

Results

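The comparison described here set 2 arrays of Panc1 cells transduced with the EAPP mutant of KLF11 against 2 arrays of cells transduced with empty vector, out of 10 arrays in the series. The members were the 4 arrays, and all 20961 transcript clusters that carry a gene symbol were tested in them. Panc1 is an established epithelial cell line that came from a pancreatic ductal carcinoma. All cells received an adenovirus with a cytomegalovirus promoter at a multiplicity of infection of 150, and RNA was taken 48 h later. The empty vector virus carried no KLF11, and the EAPP virus carried epitope-tagged human KLF11 with prolines placed in its Sin3 interacting domain. The remaining 6 arrays, which served to estimate the spread and for direct contrasts, were 2 each for A347S, Δ486 and unmutated KLF11, called wild type, in the same vector. By the methods, the arrays of a pair were technical replicates of RNA pooled from 3 cultures, although the sample titles number them as biological replicates. All errors and p-values below therefore measure the spread between arrays, and a cell line that overexpresses a factor from a viral promoter is the only model examined.

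KLF11 is a zinc finger transcription factor of the Krüppel-like family, known for its part in diabetes and in growth control. Its C-terminal fingers bind GC-rich promoter letters, while a short N-terminal helix docks to the Sin3 scaffold, which carries histone deacetylases. The EAPP change breaks that docking and leaves the zinc fingers in place. The contrast thus sets transcript levels under a KLF11 without Sin3 coupling against those of cells without added KLF11. Taken alone, it cannot tell apart an effect of the lost coupling and an effect of any KLF11 virus.

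Levels are given as log2 expression of a transcript cluster, a set of probes summarised together, as the authors normalized them. Most clusters carry 1 gene symbol, some carry several, and a gene can have more than 1 cluster. A change is the EAPP mean minus the empty vector mean, on the log2 scale, given with the standard error of a linear model fitted with limma to all 10 arrays. Under the adjusted criterion a cluster needed a Benjamini-Hochberg adjusted p under 0.05 and a change of at least 1.5-fold, and the unadjusted criterion took the p before adjustment at 0.05, again with 1.5-fold. The methods apply no false discovery rate to this mutant, so the second criterion is also given. With 2 arrays a side, an exact two-sided permutation test cannot go below 0.333, so every call rests on the model. Array medians lay between 6.81 and 6.87 over all 10 arrays, and the correlation across clusters within a pair was 0.9973 for empty vector and 0.9961 for EAPP. Ductal epithelial keratins were bright, as KRT18 read 13.10 and 13.25 in the empty vector pair and 13.10 and 13.12 in the EAPP pair. Of the 10 ductal markers only KRT19 had an unadjusted p under 0.05, with a change of -0.44 ± 0.13. Of all genes, 5.44% were lower and 3.62% higher at that threshold. E-cadherin, CDH1, was dim at 4.95 to 5.12 on the 4 arrays.

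The promoters of the genes on which the results turn are shown first, since KLF11 reaches its targets through promoter letters. They run from 250 bases before to 50 bases after the RefSeq gene start on the assembly GRCh38.p14, read 5′ to 3′ on the strand of the gene. For the first pair, the only gene past the adjusted criterion and the one next to it in p among the genes that were higher, capitals mark CCCCGC or CCCCAC on either strand, the letters that the study gives for KLF11. BDH1 lies on the minus strand at chr3:197573294-197573593 and ALDH6A1 on the minus strand at chr14:74084404-74084703.
BDH1: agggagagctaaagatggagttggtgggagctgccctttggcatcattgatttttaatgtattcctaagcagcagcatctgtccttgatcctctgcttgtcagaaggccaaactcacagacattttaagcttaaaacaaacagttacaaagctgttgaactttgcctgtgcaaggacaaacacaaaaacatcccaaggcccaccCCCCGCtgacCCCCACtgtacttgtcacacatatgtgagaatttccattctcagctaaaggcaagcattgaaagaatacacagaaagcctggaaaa
ALDH6A1: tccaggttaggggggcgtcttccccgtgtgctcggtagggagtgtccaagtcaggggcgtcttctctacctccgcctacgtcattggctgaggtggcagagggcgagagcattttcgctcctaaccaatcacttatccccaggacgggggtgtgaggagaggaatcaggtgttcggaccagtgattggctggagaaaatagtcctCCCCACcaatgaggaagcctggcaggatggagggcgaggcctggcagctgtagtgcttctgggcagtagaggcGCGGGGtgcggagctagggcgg
For the second pair, members of the stress list described below, capitals mark TGATGNAA on either strand, the composite of ATF4 and C/EBP partners, in which N is any base. ASNS lies on the minus strand at chr7:97872359-97872658 and CHAC1 on the plus strand at chr15:40953221-40953520.
ASNS: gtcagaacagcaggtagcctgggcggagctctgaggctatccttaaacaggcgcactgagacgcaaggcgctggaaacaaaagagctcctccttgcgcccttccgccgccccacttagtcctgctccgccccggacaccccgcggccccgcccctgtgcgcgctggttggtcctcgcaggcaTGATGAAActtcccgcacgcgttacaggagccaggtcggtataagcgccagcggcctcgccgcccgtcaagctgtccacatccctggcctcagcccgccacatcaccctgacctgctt
CHAC1: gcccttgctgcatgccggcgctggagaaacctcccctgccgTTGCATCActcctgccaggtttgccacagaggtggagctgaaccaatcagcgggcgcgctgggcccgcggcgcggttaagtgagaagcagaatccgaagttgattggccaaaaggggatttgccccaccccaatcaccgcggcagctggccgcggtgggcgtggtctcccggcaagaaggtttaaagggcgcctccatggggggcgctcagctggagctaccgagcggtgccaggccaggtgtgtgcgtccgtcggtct
In these 4 windows no capitalised match overlaps another. BDH1 holds 2 matches that start 46 and 36 bases before the gene start, at offsets of -46 and -36, and those of ALDH6A1 start at -45 and 28. The match of ASNS starts at -68 and that of CHAC1, on the opposite strand, at -209.

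By the adjusted criterion, 1 of the 20961 clusters passed (0.00477%), and this was BDH1, which rose with EAPP. BDH1 is the mitochondrial enzyme that interconverts acetoacetate and 3-hydroxybutyrate. It read 7.03 and 6.92 in the empty vector pair and 8.06 and 8.27 in the EAPP pair, so that the pairs stand more than a unit apart. This was a rise of 1.19 ± 0.10, or 2.28-fold (limma adjusted p = 0.0127). By the unadjusted criterion 38 clusters passed (0.181%), of which 23 were higher (0.11%) and 15 lower (0.0716%). At any fold, 1829 clusters (8.73%) had an unadjusted p under 0.05, where 1048 would be given by that threshold alone if nothing differed. The 38 clusters stand for 32 genes, 17 higher and 15 lower, together with a further RFPL4A cluster, a dimmer FAM99A cluster that does not represent its gene, and 4 clusters that carry several symbols. The arrays of the groups did not overlap in any of the 38, as they did not in 39.3% of all clusters, and the call itself favours such clusters. The call of BDH1 depends on the model, since it was lost without either empty vector array, the second EAPP array or either A347S array.

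**Figure D1:**
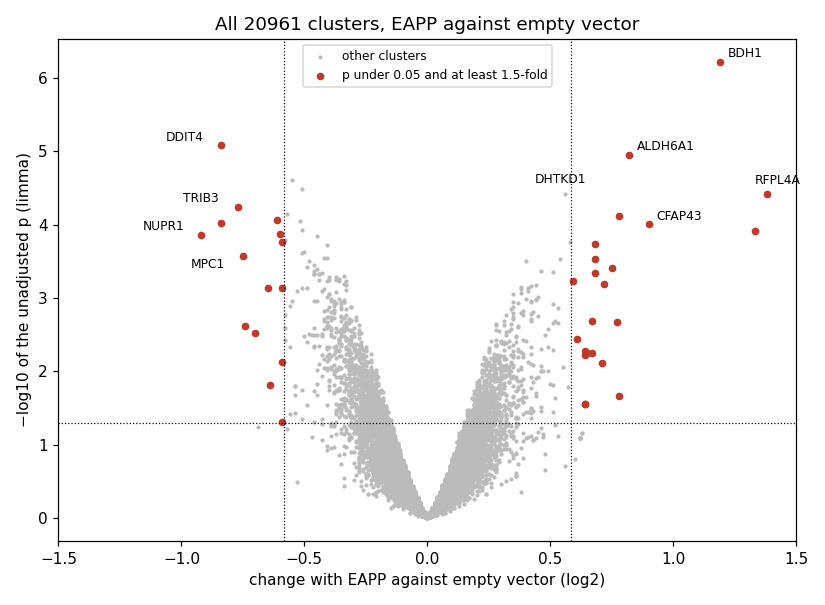
Each point is 1 of 20961 clusters, with the log2 change of EAPP against empty vector on the x axis and −log10 of limma's unadjusted p on the y axis, and dotted lines at 1.5-fold and at p 0.05. The 38 clusters past both lines are red, with BDH1 highest at a change of 1.19 and DDIT4 highest among the lower genes at -0.84.

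Among the 17 genes that were higher, the widest change was that of RFPL4A, a member of the ret finger protein-like family. It read 5.49 and 5.65 in the empty vector pair against 7.22 and 6.69 in the EAPP pair. Its change was 1.38 ± 0.19, and a neighbouring cluster of the same gene gave 1.33 ± 0.21. ALDH6A1, the methylmalonate semialdehyde dehydrogenase of valine breakdown, read 5.87 and 5.75 without KLF11 and 6.58 and 6.68 with EAPP. Its change of 0.82 ± 0.10 had an adjusted p of 0.0787 by limma, and a dim further cluster of the gene, at 3.13 over all arrays, gave 0.21 ± 0.08. Genes of the ciliary axoneme were in the group as well. CFAP43, a cilia and flagella associated protein, read 4.17 and 4.37 against 5.37 and 4.98, and SAXO2, a microtubule stabiliser of axonemes, read 4.57 and 5.24 against 5.42 and 5.82. The 2 SAXO2 empty vector arrays differed from each other by nearly as much as the groups did.

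Transcription and chromatin factors formed another part of the higher genes. FOXO3, a forkhead factor of stress and starvation responses, read 6.12 and 5.89 in the empty vector pair and 6.63 and 6.56 in the EAPP pair. TLE4, a corepressor of the Groucho family, read 5.58 and 5.72 against 6.61 and 6.12. HMGN5, a nucleosome-binding protein, read 5.51 and 5.70 against 6.46 and 5.98. In all 3 the EAPP arrays lay above both empty vector arrays, as in every higher cluster past the criterion and in 18.2% of all genes. Their changes were 0.59 ± 0.12, 0.72 ± 0.14 and 0.61 ± 0.16. The zinc finger gene ZNF716 stood at 0.78 ± 0.12. DNAJB4, a cochaperone of the heat shock protein 40 family, was the brightest of the higher genes, at 8.51 and 8.58 against 9.42 and 9.04. KITLG, the ligand of the KIT receptor, read 4.02 and 3.90 against 4.75 and 4.46, near the dim end of the array. SLFN5, of the Schlafen family, stood at 0.64 ± 0.18, IGLON5, a cell adhesion molecule, at 0.75 ± 0.14, and VWA5A at 0.68 ± 0.12. The non-coding genes LOC100506730 and AQP4-AS1 stood at 0.68 ± 0.12 and 0.67 ± 0.19.

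KLF11 itself read 8.37 and 7.75 in the empty vector pair and 8.78 and 8.68 in the EAPP pair. Both EAPP arrays were higher, but the empty vector arrays differed by more than the higher of them differed from EAPP. The change of 0.67 ± 0.16 passed the unadjusted criterion with an adjusted p of 0.282 by limma. Against the same empty vector arrays, the wild type stood at 0.77, A347S at 0.81 and Δ486 at 0.71, and EAPP differed directly from the wild type by -0.11 (limma adjusted p = 0.742). The sources used here do not say which probes of the cluster read the transduced copy.

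Among the 15 genes that were lower, the most negative values were those of NUPR1, DDIT4, ALDH1L2 and TRIB3, all of which but ALDH1L2 are on a stress list taken up below. NUPR1, a small chromatin protein induced by stress, read 8.39 on each empty vector array, and 7.54 and 7.40 in the EAPP pair. DDIT4, an inhibitor of TOR signalling that the study also singled out on these arrays, read 9.11 on each empty vector array, and 8.31 and 8.22 with EAPP. ALDH1L2, a mitochondrial folate dehydrogenase, read 7.59 and 7.60 against 6.77 and 6.76. The duplicates of these 3 genes were tight, and the changes were -0.92 ± 0.15, -0.84 ± 0.10 and -0.84 ± 0.13. DDIT4 had an adjusted p of 0.0787 by limma, the same as ALDH6A1, and no other cluster besides BDH1 was under 0.1.

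Entry of pyruvate into mitochondria and its oxidation accounted for another pair. MPC1, part of the carrier that brings pyruvate into mitochondria, read 8.48 and 8.46 without KLF11 and 7.88 and 7.57 with EAPP, and PDP1, the phosphatase that activates pyruvate dehydrogenase, read 8.10 and 8.08 against 7.47 and 7.52. In both genes the EAPP arrays lay below both empty vector arrays, as in every lower cluster past the criterion and in 21.4% of all genes. The changes were -0.75 ± 0.13 and -0.60 ± 0.10. MID1IP1, which promotes the polymerisation of acetyl-CoA carboxylase, stood at -0.61 ± 0.09 with tight duplicates of 8.19 and 8.24 against 7.62 and 7.59. Cell surface and junction genes were CLDN1, a claudin of tight junctions, at 8.81 and 8.76 against 8.32 and 8.07, and ULBP1, a ligand of the natural killer cell receptor NKG2D, at 8.54 and 8.79 against 8.14 and 7.70. Further genes were the rhomboid protease RHBDL2 at -0.59 ± 0.10, the receptor LRP10 at -0.65 ± 0.13 and the secreted C1QTNF9B at -0.70 ± 0.18. CLDN6 read 4.96 and 5.02 against 3.94 and 4.86, so its change of -0.59 ± 0.26 came mainly from the first EAPP array. GK3, a retrogene of glycerol kinase, stood at -0.59 ± 0.17, and its probes may also read the parent gene, as those of RFPL4A may read its near-identical neighbours.

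**Figure D2:**
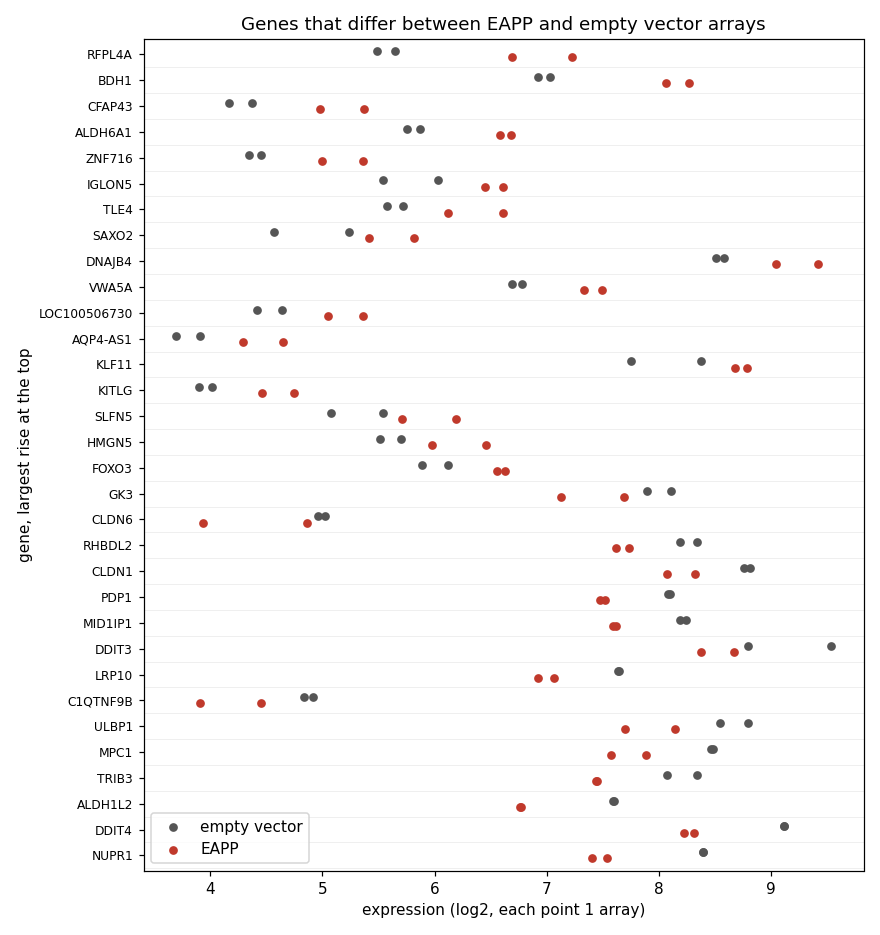
Expression (log2, x axis) of the 32 genes past the unadjusted criterion, with 1 point per array, grey for empty vector and red for EAPP, ordered by change. The red points lie to the right of the grey ones for the 17 higher genes and to the left for the 15 lower ones, and the gap is widest for RFPL4A and BDH1.

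Of the 32 genes, 11 passed the unadjusted criterion whichever of the 4 empty vector and EAPP arrays was left out. On the higher side these were RFPL4A, BDH1, CFAP43, ALDH6A1, ZNF716 and VWA5A, and on the lower side NUPR1, DDIT4, ALDH1L2, TRIB3 and MPC1. The change of BDH1 then lay between 1.08 and 1.30, and that of ALDH1L2 between -0.84 and -0.83. KLF11 was at 0.36 without the second empty vector array and at 0.98 without the first, SAXO2 ranged from 0.38 to 1.05, CLDN6 from -1.05 to -0.13 and GK3 from -0.87 to -0.31.

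The genes closest to the fold threshold had values much like those just past it. On the higher side the last gene within was FOXO3 at 0.59, and those just outside were MARCHF3 at 0.58, TMEM232 at 0.57, DHTKD1 at 0.56, HCAR3 at 0.55 and PLEKHS1 at 0.54. On the lower side RHBDL2, CLDN6, CLDN1 and GK3 stood just within at -0.59, and SPARC, LYRM9 and JARID2 just outside at -0.58. JARID2, a partner of Polycomb repressive complex PRC2, had tight duplicates of 7.34 and 7.30 against 6.72 and 6.76.

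The integrated stress response had the highest share of lower genes among the 37 lists examined. In this response, kinases that sense amino acid shortage or misfolded protein slow translation and raise the factor ATF4, which then switches on genes of amino acid synthesis, transport and stress. Of the 30 genes on the list of ATF4 targets and unfolded protein response genes, all were measured. In EAPP cells 19 of them (63.3%) were lower at an unadjusted p under 0.05, at any fold, against 5.44% of all genes, and 0 were higher, against 3.62% of all genes. NUPR1, DDIT4, TRIB3 and DDIT3 were also among the genes past the unadjusted criterion with its fold, no further member was, and none had an adjusted p under 0.05. The median change of the list was -0.29, where the median of all genes was 0.001. In 24 of the 30 both EAPP arrays lay below both empty vector arrays, which held for 21.4% of all genes.

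The 19 included transcription factors, amino acid enzymes and transporters, and genes of the endoplasmic reticulum, but neither of the sensor kinases on the list. The factor ATF4 read 8.36 and 8.25 in the empty vector pair and 7.98 and 8.01 in the EAPP pair, a change of -0.32 ± 0.08. Of its partner factors, DDIT3, also known as CHOP, read 8.79 and 9.53 against 8.67 and 8.37, and ATF3 read 6.34 and 6.45 against 6.14 and 5.99. CEBPB stood at -0.33 ± 0.11. DDIT3 was the one gene of these in which the empty vector arrays stood far apart, and its change of -0.64 ± 0.22 was -0.27 without the second of them and -1.01 without the first. TRIB3, a pseudokinase that feeds back on ATF4 and on AKT, read 8.07 and 8.34 against 7.44 and 7.45, a change of -0.77 ± 0.11. CHAC1, which degrades glutathione, read 8.05 and 8.30 against 7.86 and 7.52, and SESN2, a stress-inducible inhibitor of TOR, stood at -0.31 ± 0.12.

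The enzymes of amino acid synthesis that passed were bright on the array, and their changes were small with tight duplicates. ASNS, asparagine synthetase, read 10.59 and 10.56 without KLF11 and 10.28 and 10.15 with EAPP. The serine synthesis enzymes PHGDH and PSAT1 read 10.95 and 10.92 against 10.61 on each EAPP array, and 11.05 and 11.09 against 10.74 and 10.65. These were changes of -0.37 ± 0.10, -0.33 ± 0.08 and -0.38 ± 0.08. Among the transporters, SLC7A11, the cystine carrier, read 9.12 and 9.15 against 8.96 and 8.49, with the EAPP arrays apart from each other, while SLC7A5 and its heavy chain SLC3A2 both stood at -0.28, with standard errors of 0.07 and 0.08. In the endoplasmic reticulum branch, XBP1 stood at -0.26 ± 0.09, HERPUD1 at -0.30 ± 0.12 and the chaperone HSPA5 at -0.20 ± 0.07. STC2, a secreted glycoprotein which the study named for this mutant on the same arrays, stood at -0.48 ± 0.12. Members that did not pass included MTHFD2 at -0.20 ± 0.09, CTH at -0.06 ± 0.17, ATF5 at -0.02 ± 0.10, and the sensor kinases ERN1 at -0.05 ± 0.08 and EIF2AK3 at 0.08 ± 0.09. Outside the list, PCK2, the mitochondrial phosphoenolpyruvate carboxykinase, read 7.65 and 7.84 against 7.23 on each EAPP array, a change of -0.52 ± 0.08.

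Leaving out the second empty vector array brought the count from 19 to 12, and it was 10 by a plain t-test of the EAPP against the empty vector arrays, and between 13 and 22 under the other alternatives run. The change of the list against empty vector had a median of -0.18 for the wild type, -0.24 for A347S and -0.12 for Δ486, all read against the same empty vector arrays. With wild type KLF11, 12 of the 30 were lower at an unadjusted p under 0.05, against 17.5% of all genes. In the direct contrast, which uses no empty vector array, 7 of the 30 were lower in EAPP than in the wild type with an adjusted p below 0.05 at any fold, against 6% of all genes, and 0 were higher, against 5.06%. These were ASNS at -0.65 (limma adjusted p = 0.00446), SLC7A11 at -0.76 (limma adjusted p = 0.0164), PHGDH at -0.32, SHMT2 at -0.33, HERPUD1 at -0.45, PPP1R15A at -0.38 and DNAJB9 at -0.49. ASNS and SLC7A11 stood on opposite sides of empty vector with the 2 constructs, as wild type KLF11 gave 0.28 and 0.35. DDIT4, TRIB3, NUPR1, DDIT3 and ATF4 did not pass in that contrast, with differences of 0.12, -0.25, -0.48, -0.05 and -0.01.

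**Figure D3:**
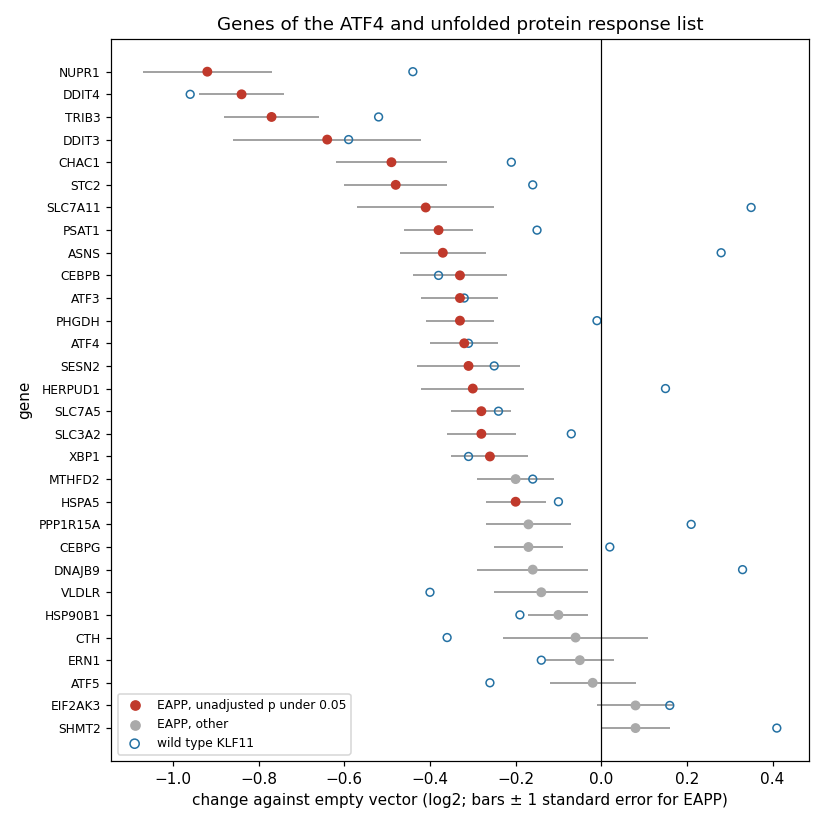
Change against empty vector (log2, x axis) of the 30 genes of the stress list, with filled points for EAPP (red where the unadjusted p was under 0.05, bars of 1 standard error) and open points for wild type KLF11. The 19 red points all lie below 0, and for ASNS and SLC7A11 the open points lie above 0.

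The TGATGNAA composite was looked for in the promoters of this list after its values had been seen. It was present in 5 of the 27 promoters found for the list (18.5%), in 5 of 17 among the 19 lower genes (29.4%), in 2.54% of the promoters of all measured genes and in 3.67% of all promoters of the table. The 5 genes were ASNS, ATF3, CHAC1, HERPUD1 and SLC3A2. Since the list was made up of ATF4 targets among others, the composite could be frequent in it whatever these arrays show. The KLF11 letters CCCCGC and CCCCAC were in 20 of the 26 promoters found for the 32 genes past the unadjusted criterion (76.9%), in 11 of 15 for those higher and 9 of 11 for those lower. They were in 68.6% of the promoters of all measured genes, so these short letters are common in windows of this length. RFPL4A and DNAJB4 held none of them and DHTKD1 held 4. A match is a run of letters and no measured binding site.

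EAPP parted from wild type KLF11 in the genes that break down branched-chain amino acids and ketone bodies. Valine, leucine and isoleucine are degraded in mitochondria to acetyl-CoA, propionyl-CoA and acetoacetate, the last of which BDH1 reduces. Of 26 measured genes of this catabolism, 4 were higher in EAPP than in empty vector at an unadjusted p under 0.05, against 3.62% of all genes, and 3 were lower, against 5.44%, and the median change was 0.04. The higher ones besides ALDH6A1 were MCCC1, a subunit of methylcrotonyl-CoA carboxylase, at 9.48 and 9.57 against 10.02 and 9.89, the phosphatase PPM1K at 5.28 and 5.46 against 5.89 and 5.69, and BCKDHB, of the branched-chain ketoacid dehydrogenase, at 9.30 and 9.24 against 9.58 and 9.49. Their EAPP arrays lay above both empty vector arrays, as in 18.2% of all genes. The lower ones were the transaminases BCAT2 and BCAT1 at -0.33 ± 0.09 and -0.24 ± 0.10, and HIBADH at -0.17 ± 0.07.

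In the direct contrast 13 of these 26 were higher in EAPP than in the wild type with an adjusted p below 0.05, against 5.06% of all genes, and 2 were lower, against 6%. The differences included 1.22 for BCKDHB (limma adjusted p = 0.000182), 1.11 for MMUT, methylmalonyl-CoA mutase (limma adjusted p = 0.000392), 0.93 for IVD, 0.88 for PCCB and 0.76 for MCCC1. For MMUT and IVD the EAPP level was near that of empty vector, with changes of -0.17 ± 0.10 and -0.08 ± 0.09, where the wild type gave -1.29 and -1.01. BDH1 and ALDH6A1 were past the empty vector level on the other side, since the wild type changes were -1.20 and -0.81 and the direct differences 2.39 (limma adjusted p = 2.1e-05) and 1.63 (limma adjusted p = 0.000179). Of the 7 ketone body genes measured, 2 were higher than in empty vector at an unadjusted p under 0.05, against 3.62% of all genes. Lower ones numbered 0, against 5.44%, and the lowest change was -0.26. In the direct contrast 4 of the 7 were higher in EAPP at an adjusted p below 0.05, against 5.06%, and 0 were lower, against 6%. OXCT1, which activates acetoacetate, read 8.17 and 8.23 without KLF11 and 8.46 and 8.52 with EAPP, and ACAT1 stood at 0.16 ± 0.07. DHTKD1, the dehydrogenase subunit of lysine and tryptophan breakdown, read 8.02 and 8.09 against 8.55 and 8.68, and differed from the wild type by 1.00 (limma adjusted p = 0.000288).

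Other mitochondrial and lipid enzymes also differed directly between EAPP and wild type KLF11. Among 31 genes of pyruvate entry and the tricarboxylic acid cycle, 10 were higher in EAPP than in the wild type at an adjusted p below 0.05, against 5.06% of all genes, and 1 was lower, against 6%, with PC, pyruvate carboxylase, at 0.88 and IDH2 at 0.91. Against empty vector 1 of the 31 (3.23%) was higher at an unadjusted p under 0.05, where 3.62% of all genes were. This was PC, at 7.36 and 7.27 against 7.56 and 7.45. The 3 that were lower (9.68%, against 5.44% of all genes) were MPC1, PDP1 and IDH1. Of 26 genes of fatty acid and triglyceride synthesis, 6 were lower than in empty vector, against 5.44% of all genes, and 0 higher, against 3.62%. They included the elongases ELOVL1, at 9.58 and 9.51 against 9.07 and 9.10, and ELOVL6, at -0.32 ± 0.10, and LPIN1, the phosphatidate phosphatase, at 9.49 and 9.55 against 9.14 and 8.99. The desaturases FADS2 and SCD were lower by less, at -0.24 ± 0.07 and -0.18 ± 0.08. In the direct contrast 10 of the 26 were higher in EAPP than in the wild type, against 5.06% of all genes. They included FASN at 0.60 and ELOVL1 at 0.49, and 2 members were lower, against 6% of all genes. ACAT2, the cytosolic thiolase of sterol synthesis, read 10.92 and 10.98 against 11.30 on each EAPP array, while the wild type change was -0.88. The glucose transporter SLC2A1 had a change of 0.13 ± 0.11 under EAPP and -1.30 under wild type KLF11, a direct difference of 1.43 (limma adjusted p = 0.000274).

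Of the 32 genes past the unadjusted criterion, 11 differed from wild type KLF11 by the adjusted criterion, which 2.51% of all clusters passed. The EAPP arrays entered both selections, so the share is a description. Among them 7 were higher than empty vector with EAPP and lower than wild type KLF11. RFPL4A differed by -1.66 (limma adjusted p = 0.00132), DNAJB4 differed by -1.60, HMGN5 by -1.19, SLFN5 by -1.18, KITLG by -0.99, SAXO2 by -0.88 and CFAP43 by -0.84. MPC1 was lower than empty vector with both constructs and less so with EAPP, by a difference of 0.90 (limma adjusted p = 0.00334). CLDN1 was lower than in both empty vector and the wild type, with a difference of -0.85 from the latter. For the other 21 no difference from the wild type passed, which does not show that the levels were equal. Against the same empty vector arrays, 20 of the 32 passed the adjusted criterion in the same direction with wild type KLF11. The counts were 22 with A347S, 24 with Δ486, 19 with all 3 constructs and 8 with none of them. The empty vector arrays entered each of these comparisons, so the counts are a description. The shares of all clusters that passed with these 3 constructs were not computed, so the counts cannot be judged against them. ZNF204P, among the genes most raised by wild type KLF11 at 2.43, stood at -0.57 ± 0.27 with EAPP, a direct difference of -2.99 (limma adjusted p = 0.000412). KIAA0825 had a change of 0.49 ± 0.13 under EAPP and 2.50 under wild type KLF11.

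**Figure D4:**
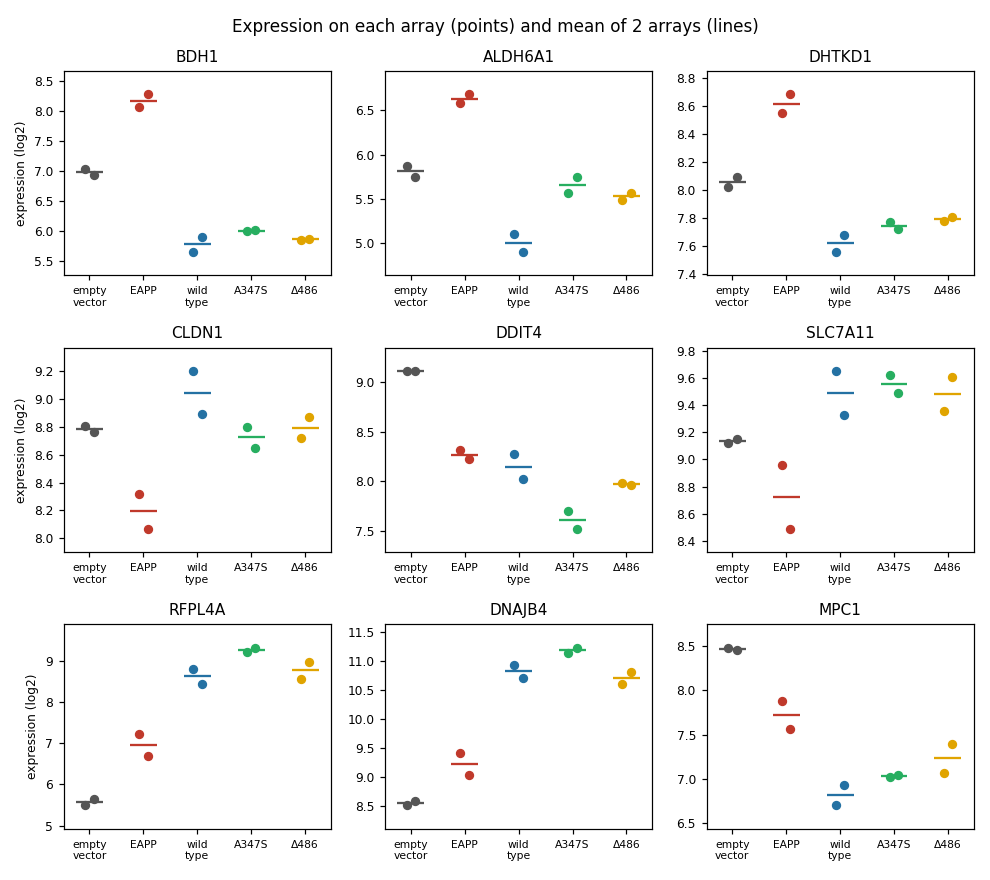
Expression (log2, y axis) of 9 genes on each array, with 2 points and their mean line for empty vector, EAPP, wild type KLF11, A347S and Δ486 (x axis). EAPP lies above the other constructs and empty vector for BDH1, ALDH6A1 and DHTKD1, below them for CLDN1 and SLC7A11, and between empty vector and the others for RFPL4A, DNAJB4 and MPC1, and DDIT4 is lower than empty vector with all 4 constructs.

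The TGF-beta and BMP pathway works through receptor kinases and SMAD factors, and KLF11 was first described as a TGF-beta inducible gene. Of 29 measured members 10 were lower in EAPP at an unadjusted p under 0.05, against 5.44% of all genes, 1 was higher, against 3.62%, and the median change was -0.17. The type I receptors ACVR1 and TGFBR1 read 7.69 and 7.71 against 7.35 and 7.23, and 8.30 and 8.29 against 8.11 and 8.12. The ubiquitin ligases SMURF1 and SMURF2, which remove receptors and SMADs, stood at -0.36 ± 0.10 and -0.28 ± 0.10, SMAD3 at -0.21 ± 0.09 and the target ID1 at -0.36 ± 0.14. The ligand TGFB2 was the higher one, at 8.74 and 8.77 against 9.25 and 9.07. With wild type KLF11, read against the same empty vector arrays, 12 were lower, where 17.5% of all genes were. The median was -0.14 for the wild type, -0.28 for A347S and -0.22 for Δ486. In the direct contrast 3 were higher in EAPP than in the wild type at an adjusted p below 0.05, against 5.06% of all genes. A further 2 were lower, against 6%. The count of 10 was 5 without the first empty vector array or the second EAPP array, and 6 without the second empty vector array, by a plain t-test or without moderation.

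Immediate early genes, which growth factors switch on within minutes, showed 9 of 22 lower at an unadjusted p under 0.05, against 5.44% of all genes, and 0 higher, against 3.62%, with a median of -0.19. JUN read 9.58 and 9.68 against 9.21 and 9.30, and MYC read 9.16 and 9.21 against 8.87 and 8.83. SPRY2 and SPRY4, feedback inhibitors of receptor tyrosine kinases, stood at -0.41 ± 0.08 and -0.39 ± 0.09, and the phosphatase DUSP6 at -0.36 ± 0.11. Duplicates of JUN, MYC and SPRY2 were close together. Their EAPP arrays lay below both empty vector arrays, as in 21.4% of all genes. ATF3 belongs to this list and to the stress list. By a plain t-test the count of 9 was 3, and leaving out the second empty vector array made it 5. With wild type KLF11, read against the same empty vector arrays, 12 were lower, where 17.5% of all genes were, and 0 of the 22 differed directly between the constructs by an adjusted p below 0.05.

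Genes of DNA replication were higher where they passed. Of 28 measured, 5 were higher at an unadjusted p under 0.05, against 3.62% of all genes, and 0 lower, against 5.44%, the median change was 0.13, and in 17 of them both EAPP arrays lay above both empty vector arrays, as in 18.2% of all genes. The changes were small, with the origin factors ORC1 at 8.77 on each empty vector array against 8.97 and 8.99, MCM10 at 9.67 and 9.74 against 9.93 and 9.97, and CDC6 at 0.21 ± 0.07. MCM2 of the replicative helicase stood at 0.19 ± 0.08 and cyclin E2, CCNE2, at 0.22 ± 0.08. The count was 2 without the first empty vector array, 3 without the first EAPP array, 8 without the second empty vector array, 9 after cyclic loess or without moderation, 10 with a variance trend and robust moderation, and 12 after quantile normalization, so it moved with the arrays kept, the test and the scaling. Against the same empty vector arrays, the median of the replication genes was also 0.13 with wild type KLF11. It was 0.05 with A347S and 0.04 with Δ486. In the direct contrast 2 were higher in EAPP than in the wild type at an adjusted p below 0.05, against 5.06% of all genes. A further 2 were lower, against 6%. Of 26 mitotic genes, 0 were higher than in empty vector, against 3.62% of all genes, and 1 was lower, against 5.44%.

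The Krüppel-like family had 17 measured members, of which KLF11 was higher at an unadjusted p under 0.05, against 3.62% of all genes, and 4 were lower, against 5.44%. KLF10, the close relative of KLF11 and likewise a TGF-beta inducible gene, read 8.48 and 8.52 in the empty vector pair and 8.18 and 7.96 in the EAPP pair, a change of -0.43 ± 0.08. KLF12 stood at -0.36 ± 0.10, KLF6 at -0.32 ± 0.09 and KLF16 at -0.24 ± 0.10. In the direct contrast KLF12 was higher in EAPP than in wild type KLF11 by 0.36 (limma adjusted p = 0.0456). Neither KLF13 at -0.15 ± 0.13 nor KLF14 at 0.04 ± 0.11 passed.

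Members of the Sin3 complex, to which EAPP no longer couples, differed little from empty vector. Of 21 measured, the scaffold SIN3A read 8.62 and 8.64 against 8.43 and 8.41, the sugar transferase OGT stood at -0.19 ± 0.08, and the subunit SAP130 was higher at 8.76 and 8.75 against 8.95 and 8.89. The deacetylases HDAC1 and HDAC2 stood at -0.04 ± 0.07 and 0.01 ± 0.07. In the direct contrast 4 members were higher in EAPP than in wild type KLF11, against 5.06% of all genes, and 2 were lower, against 6%, including SIN3A at 0.44, HDAC1 at 0.44 and SAP130 at 0.67 against SAP18 at -0.44 and BRMS1 at -0.57. Of the 11 genes of HP1 and histone H3 lysine 9 methylation and the 8 of the SP family, 0 had an unadjusted p under 0.05. Of all genes, 3.62% were higher and 5.44% lower at that threshold.

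Motile cilium genes had 5 of 38 members higher at an unadjusted p under 0.05, against 3.62% of all genes, and 0 lower, against 5.44%, with a median of 0.05. Besides CFAP43 and SAXO2 they were ROPN1L, of the radial spoke, at 5.81 and 6.10 against 6.41 and 6.52, TEKT2 at 0.28 ± 0.11 and CFAP70 at 0.24 ± 0.08. Most of the list is dim in these cells. In the direct contrast 10 of the 38 were lower in EAPP than in wild type KLF11, against 6% of all genes, and 0 were higher, against 5.06%, with ROPN1L at -1.46 (limma adjusted p = 0.000274). The count of 5 was 3 without the first empty vector array, without the second EAPP array or without moderation, and 1 by a plain t-test.

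**Figure D5:**
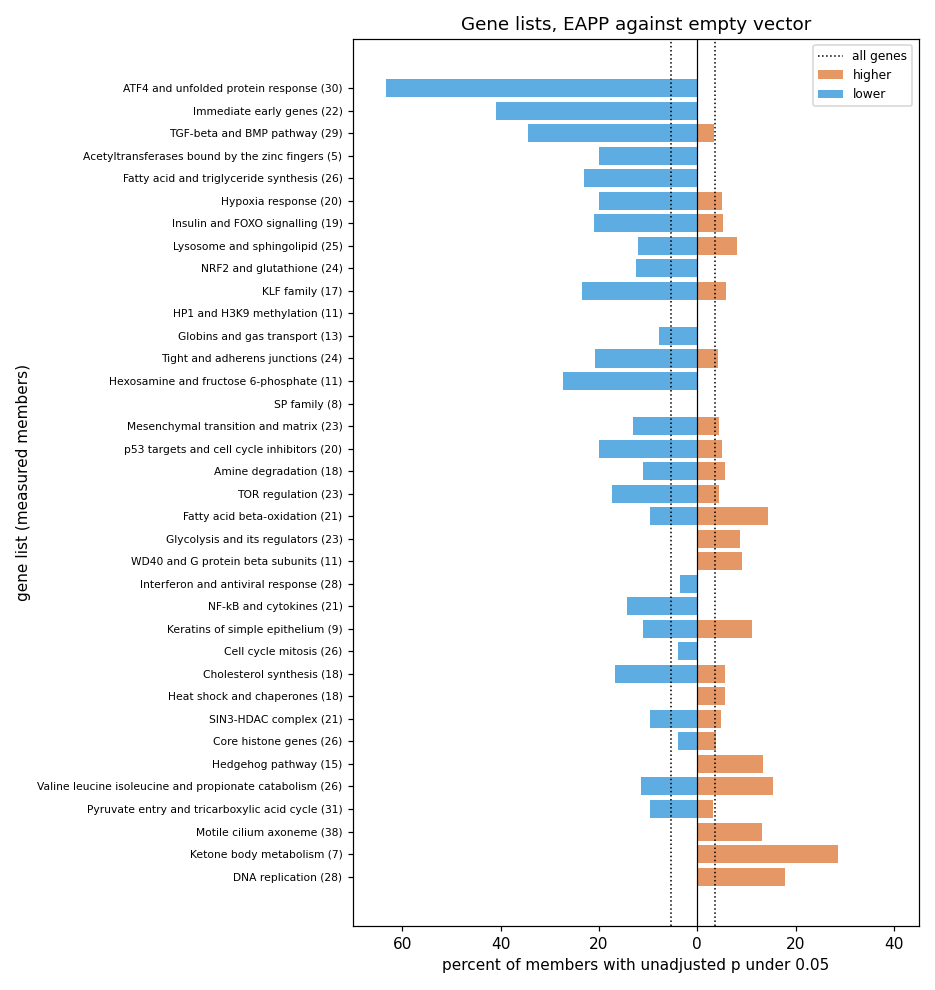
Share of each gene list with an unadjusted p under 0.05 in EAPP against empty vector (x axis, percent), lower to the left and higher to the right, ordered by median change, with the number of measured genes in parentheses, the list of genes the study named left out, and dotted lines at the shares of all genes, 5.44% lower and 3.62% higher. The stress list reaches 63.3% lower, followed by immediate early genes and the TGF-beta and BMP pathway, and DNA replication has the highest median.

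Genes that could mark other cells or that the study picked from these arrays were read in the same way. The hypoxia list had 4 of 20 members lower at an unadjusted p under 0.05, against 5.44% of all genes, and 1 higher, against 3.62%. VEGFA stood at -0.38 ± 0.10 and EPAS1 at -0.34 ± 0.07, and SLC2A1 was among those that did not pass. The median change of the list was -0.08. Against the same empty vector arrays it was -0.32 for the wild type, -0.48 for A347S and -0.31 for Δ486. Tight and adherens junction genes had 5 of 24 lower, against the same 5.44%, with CLDN4 at -0.25 ± 0.07 and the scaffold TJP1 at -0.25 ± 0.08 beside CLDN1, and JAM3 higher at 0.31 ± 0.07. HBB, beta globin, which the study chose on these arrays, was dim at 5.42 and 5.76 against 5.12 and 5.13, a change of -0.46 ± 0.11. Its companions SALL1, H2BC9 and H2BC17 stood at -0.15 ± 0.08, -0.06 ± 0.12 and 0.15 ± 0.08. Interferon and antiviral genes had 0 of 28 higher, against 3.62% of all genes, and 1 lower, against 5.44%. Markers of other cells that were measured were 6 leukocyte, 9 fibroblast, 6 endothelial, 5 erythroid, 5 neuronal, 5 islet and 4 acinar genes. Of these, CD14 at 0.28 ± 0.12 and SNAP25 at 0.33 ± 0.08 were higher at an unadjusted p under 0.05, against 3.62% of all genes. HBB alone was lower, against 5.44%. The defining markers PTPRC, PECAM1 and GCG read 3.52 to 3.71, 4.56 to 4.88 and 3.80 to 4.03 on the 4 arrays, near the dim end of a scale whose median was 6.88 over all genes.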

How the data were processed

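Expression was measured on Affymetrix Human Gene 1.0 ST arrays. The log2 values were deposited by the authors after background subtraction and Robust Multiarray Analysis, with Partek 6.6 named in the processing notes, and no source used here gives a genome build for the probe annotation. Scaling by the authors brings all arrays to a like distribution, so a shift common to all genes could not be seen. Of 28869 clusters, 7908 without a symbol were left out. Of the 20961 tested, 19229 had 1 symbol and 1732 had several, which were counted and not named. By gene number 19198 matched RefSeq and 0 symbols differed. The brightest cluster over all arrays stood for each of 18377 genes.

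A linear model with 5 group means was fitted to 10 arrays with limma 3.58.1 in R 4.3.3 (5 residual and 4.54 prior degrees of freedom, median standard error 0.095), and p-values were adjusted over all clusters. The precision is limited by the number of arrays. The fit was tested on simulated data. The genes named are KLF11, those past either criterion, the 5 nearest under the fold each way, the 5 smallest p of each of 37 gene lists and 8 marker lists, all members of the KLF, Sin3, ketone and marker lists, and the 10 largest changes each way with wild type KLF11. List members outside this rule, among them ASNS, DDIT3, SESN2, XBP1, HERPUD1, HSPA5, CEBPB, PPP1R15A, SHMT2, DNAJB9 and enzymes named from the direct contrast, were picked after their values were seen. Members and lists were chosen with earlier results of these data known. No set test was run, and the study's own comparison values were not used. Deviations of same-numbered arrays had correlations from -0.35, between EAPP and Δ486, to 0.15, between EAPP and the wild type. A block set by array number does not take up deviations of opposite sign. Alternatives covered the threshold, the test (among others a plain t-test, without the Bayes correction that the methods add to theirs), the scaling, dim clusters, the clusters tested, the replicate block and each array left out in turn. Promoters are RefSeq's on GRCh38.p14, matched by gene number for 14207 genes. Plots used matplotlib 3.10.9 with Python 3.11.15.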

Additional observations from a re-analysis of the deposited data

How the results depend on the processing

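The count of 1 cluster past the adjusted criterion became 21 with a variance trend and robust moderation, 3 (BDH1, ALDH6A1 and DDIT4) among clusters with a mean of at least 5, and 0 without moderation, by a plain t-test, with the empty vector and EAPP arrays alone or at an absolute log2 change of 1.5. By a plain t-test of the EAPP against the empty vector arrays, without the Bayes correction of the study's methods, 15 clusters passed an unadjusted p of 0.05 with the 1.5-fold, 5 of them higher and 10 lower, and after Benjamini-Hochberg 0 passed. At an absolute log2 change of 1.5, 0 clusters passed the unadjusted criterion, with 0 higher and 0 lower. With clusters without a symbol included, 75 passed it, 41 higher and 34 lower. Leaving out each array in turn gave 0 to 1 by the adjusted criterion and 38 to 79 by the unadjusted criterion (23 to 49 higher, 14 to 40 lower). The counts were 58 and 73 without the first and second empty vector array and 79 and 76 without the first and second EAPP array, and 27, 29, 27 and 27 of the 38 clusters remained. A group left with 1 array is assumed to vary like the others. With the replicate block, 1 and 38 clusters passed and all 38 were shared, so that the pairing changed no call of these counts. Over 145 named genes and the alternatives run, 2796 of 2890 values kept direction and side, 68 lost the threshold, 26 gained it and 0 reversed. A change can move only with another scaling or when an array of its own 2 groups is left out. The other alternatives alter the p-value alone, so a reversal was not possible under them. Only the 32 genes past the unadjusted criterion could lose the threshold, and the rest kept their side unless they gained it. For 11 direct differences from wild type KLF11, 165 of 187 kept both and 22 lost the threshold. The causes were not tested. Another scaling moved the median change of all genes from 0.001 to at most 0.005. The alternatives for gene list counts were chosen after seeing the data.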

Other observations

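Of the 7908 clusters without a gene symbol, 38 (0.481%) passed the unadjusted criterion in EAPP against empty vector, 18 higher and 20 lower, and 0 passed the adjusted criterion by limma. Their median level was 4.44, and that of all clusters without a symbol was 4.6.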
